A study of Homo sapiens with 2 samples.

Results

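The regions described here are the HA-GATA2 RNA peaks that mapped to the golgin and HERC2 duplicon blocks on the long arm of chromosome 15. A duplicon is a stretch of sequence that the genome holds in several near-identical copies. Peaks were chosen by position alone: the midpoint had to lie at 20 to 35 Mb, 74.2 to 75.8 Mb or 82.4 to 85.9 Mb, called here the proximal, middle and distal block. The blocks themselves were picked from positions of these same peaks, so their crowding is a description and was not tested. They held 50 of the 2692 listed peaks and 50 of the 146 on chromosome 15, and the other 96 served as comparison. The proximal block held 41, the middle block 3 and the distal block 6.

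The peaks came from 1 HA immunoprecipitate of K562, a chronic myelogenous leukaemia line, carrying a GATA2 transgene. GATA2 is a zinc finger protein that binds DNA and controls genes of early blood cells. The cells had 1 µg/mL doxycycline for 5 hours and 100 µM 4-thiouridine, a photoreactive nucleoside, for 24 hours, and were irradiated at 365 nm with 0.3 J/cm2 before a modified single-end enhanced CLIP, which sequences the RNA crosslinked to a precipitated protein. The input library had the same cells and treatments, and its values were not analysed here. No peak has a replicate or a read count, so every value below stands for 1 library of unknown depth. Positions are on hg19 and counted from 1, and the score is the authors' own value per peak, of unstated scale and at least 50 in this list.

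The proximal part of this arm holds repeated copies of a few genes, among other genes such as OCA2. The blocks were set by position, and which of their peaks lie in such copies was not determined. HERC2 encodes a very large ubiquitin ligase, and partial copies of it, such as the pseudogene HERC2P9, are scattered over the region. The GOLGA8 genes encode proteins related to golgins, the coiled-coil proteins of the Golgi apparatus, and their repeats lie at recurrent breakpoints of deletions and duplications. ARHGAP11A is a gene active in dividing cells, and ARHGAP11B is its truncated, human-specific copy, known for its effect on neural progenitors. Because the copies are alike, a short read from one of them can match several equally well. How such reads were placed is not given in the sources used here, so the copy that a peak is listed on need not be the one that was transcribed.

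The RefSeq gene table at hand (GRCh38.p14) lists 19 GOLGA8 entries on chromosome 15, of which 14 are protein-coding and 5 pseudogenes. It lists 9 HERC2 entries, of which 1 is protein-coding and 8 are pseudogenes. All 7 genes of interest (GOLGA8A, GOLGA8B, GOLGA8M, HERC2, HERC2P9, ARHGAP11A and ARHGAP11B) are in that table. In its order HERC2P9 and GOLGA8M are near neighbours, GOLGA8H precedes ARHGAP11B, and GOLGA8N precedes ARHGAP11A. This table is of another build than the peaks, so no peak was assigned to a gene.

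The sequences show how alike the copies are. The 250 bases before the RefSeq start of GOLGA8H (chr15:30603778-30604027, plus strand) and of GOLGA8N (chr15:32593206-32593455, plus strand), both on GRCh38.p14, are printed because these genes neighbour ARHGAP11B and ARHGAP11A. Capitals mark bases that differ or have no partner in the alignment, and all others are shared.
GOLGA8H: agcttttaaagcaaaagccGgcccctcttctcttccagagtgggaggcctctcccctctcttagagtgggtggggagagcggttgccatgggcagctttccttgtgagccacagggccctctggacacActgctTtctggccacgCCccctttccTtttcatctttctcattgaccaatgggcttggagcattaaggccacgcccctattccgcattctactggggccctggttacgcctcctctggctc
GOLGA8N: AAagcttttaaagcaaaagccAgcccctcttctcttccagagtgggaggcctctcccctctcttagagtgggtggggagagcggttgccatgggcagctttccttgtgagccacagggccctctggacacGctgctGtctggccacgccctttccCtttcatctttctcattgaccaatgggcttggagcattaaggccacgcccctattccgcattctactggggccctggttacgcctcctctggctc

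In this pair 244 bases were identical, 4 were mismatched and 4 had no partner, and the longest stretch without a difference was 108 bases. GOLGA8J and GOLGA8T were identical over all 250 bases. GOLGA8M was closest to GOLGA8O, with 243 identical bases and a shared run of 115. Promoter windows were at hand for 13 GOLGA8 genes, and among the 66 pairs without GOLGA8B the median identity was 90.1% (range 40.5% to 100%). GOLGA8Q was the lowest of this group, at 40.5% to 55.9% identity to its 11 other members, but shared runs of 38 to 161 bases with them. Its low identity came mostly from bases without a partner, which count as differences. Against GOLGA8O, 179 bases were identical, 1 was mismatched and 140 had no partner. GOLGA8B was 43.3% to 52.1% identical to the 12 others, with no shared run over 9 bases. The windows of ARHGAP11A and ARHGAP11B were 45.9% identical, but that of ARHGAP11A-SCG5, a readthrough transcript listed from the ARHGAP11A locus, shared 209 identical bases with ARHGAP11B, with 2 mismatches and a run of 116. The HERC2 window was 46.1% to 55.1% identical to those of the GOLGA8 genes. That of ARHGAP11A was 45.8% identical to the window of GOLGA8F and 52.2% to that of GOLGA8G. Identities of this size were thus also reached between families, and without a long shared run they do not mark copies. GOLGA8A and HERC2P9 had no window in the table.

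Short RNA genes inside the duplicons give a second view of GOLGA8A and GOLGA8B. In the same table MIR1233-1 lies within GOLGA8A and MIR1233-2 within GOLGA8B, and their 82-base hairpins have 1 sequence between them. MIR4509 has 3 copies on chromosome 15, whose 94-base hairpins are also identical. The mature forms follow, with the seed (bases 2 to 8) in capitals. They are shown as examples of sequence in which a read that lies inside it cannot be assigned to one copy, and no peak was tied to them.
hsa-miR-1233-5p: aGUGGGAGgccagggcacggca
hsa-miR-1233-3p: uGAGCCCUguccucccgcag
hsa-miR-4509: aCUAAAGGauauagaagguuuu

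The blocks carried 2.49 peaks per Mb over 20.1 Mb (95% Poisson interval 1.85 to 3.28, which covers counting error only), against 1.54 (1.25 to 1.88) over the 62.4 Mb of the remaining chromosome. The ratio was 1.62. Peaks covered 4.90 kb per Mb in the blocks and 1.86 kb per Mb in the rest, a 2.64-fold ratio. The difference lay in the proximal block, with 2.73 peaks (1.96 to 3.71) and 6.11 kb per Mb. The middle and distal blocks had 1.88 (0.387 to 5.48) and 1.71 (0.629 to 3.73) peaks per Mb and covered 1.33 and 1.37 kb per Mb, less than the rest of the chromosome. Without the proximal block the density was 1.76 peaks per Mb.

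**Figure D1:**
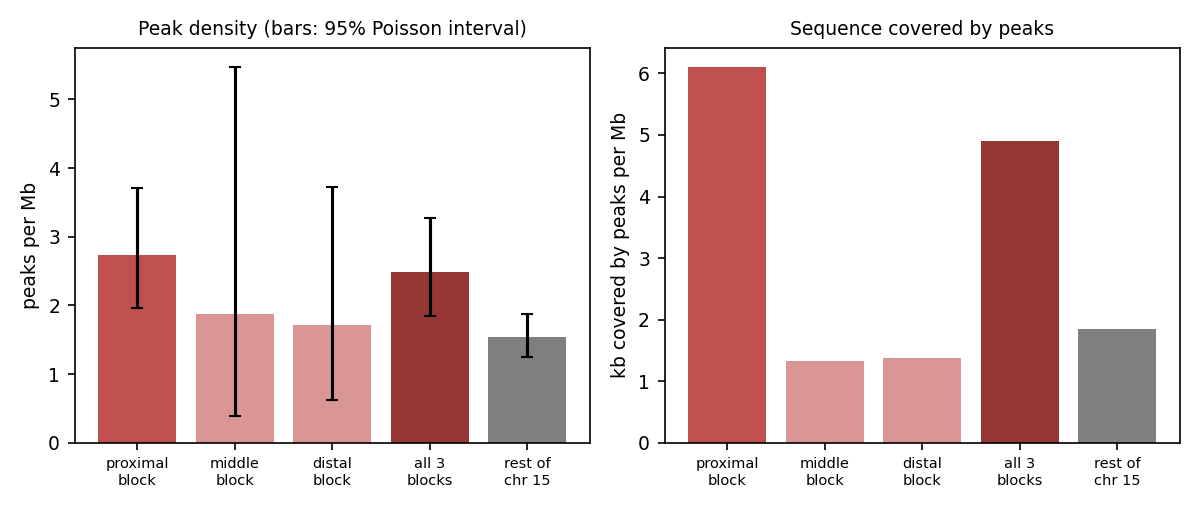
Peaks per Mb (left, with 95% Poisson intervals for counting error) and kb covered by peaks per Mb (right) in the 3 blocks, in all 3 together and in the rest of chromosome 15. The proximal block is highest in both panels, with 2.73 peaks and 6.11 kb per Mb.

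Within the proximal block the peaks were unevenly placed. Of its 15 windows of 1 Mb, 4 were empty, the median window held 2 peaks and 3 windows held 5 or more. The window from 28 Mb held 10 peaks, that from 20 Mb held 7 and that from 23 Mb held 6. In the rest of the chromosome 27 of 61 windows were empty, the median was 1, and 5 windows held 5 or more, with 9 at most. Crowded windows were thus not limited to the blocks. Unsequenced gaps of the build were not taken into account.

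Peaks of the blocks, pooled, had a higher median length and score than the others on the chromosome. Their median length was 1204 bp (quartiles 674 and 2088 bp) against 846.5 bp (523 and 1412 bp) in the rest. Their median score was 77.6 (quartiles 59.6 and 113) against 62.4 (55.1 and 79.3). The proximal block alone had the greater length, with a median of 1592 bp, whereas the middle and distal blocks had 562 and 779.5 bp. Median scores of the proximal, middle and distal blocks were 78.5, 77.3 and 75.9. The whole list had medians of 851 bp and 65.9. A length of 2000 bp or more was reached by 13 block peaks (26%), by 14 peaks of the rest (14.6%) and by 378 of the whole list. A score above 100 was reached by 16 block peaks (32%), 13 of the rest (13.5%) and 16.0% of the list. All 13 long and all 16 high-scoring block peaks lay in the proximal block. Length and score were only weakly related across the 50 block peaks (Spearman's rank correlation 0.12) and the 96 others (0.15), which share 1 library.

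**Figure D2:**
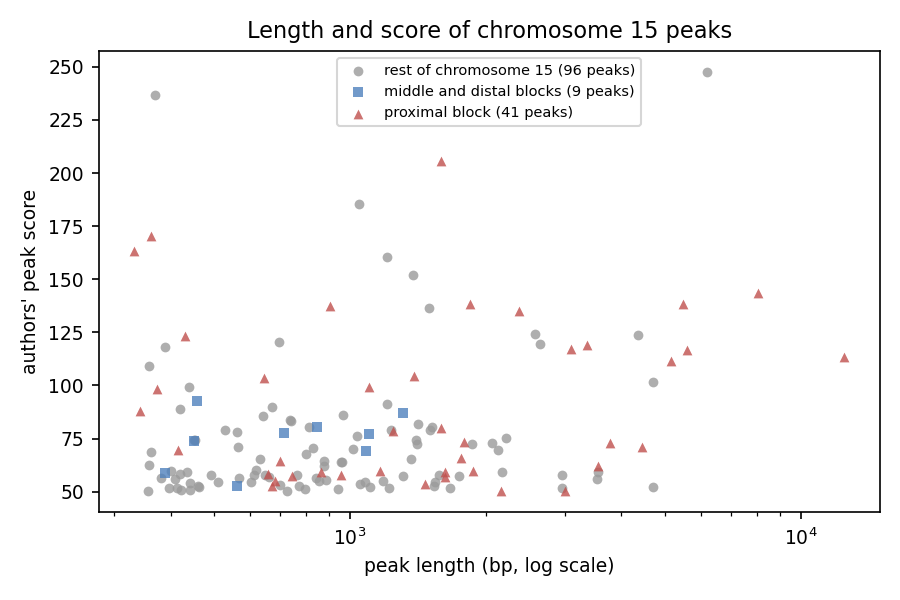
Length (bp, log scale) against the authors' score for each chromosome 15 peak, with the 41 peaks of the proximal block as triangles, the 9 of the middle and distal blocks as squares and the 96 others as circles. Both peaks beyond 6187 bp are in the proximal block, and the 2 highest scores, 247.72 and 236.76, are in the rest.

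A pair of peaks exceeded all others of the chromosome in length. The one from 31024252 to 31036740 measured 12489 bp and was the longest of all 2692. It scored 113.64 and made up 12.7% of the sequence covered by block peaks. The other, from 28846940 to 28854975, measured 8036 bp, ranked 7 in length in the list and scored 143.47. The former was 1.55 times as long as the latter. Block peaks of at least 4000 bp numbered 6 (12%), against 4 in the rest (4.17%) and 3.90% of the list. The remaining 4 started at 34817263 (5596 bp, score 116.94), 20693015 (5469 bp, 138.19), 23360353 (5148 bp, 111.75) and 31068602 (4455 bp, 71.17). Outside the blocks, the longest peak of the chromosome was also its highest-scoring one, from 40912303 to 40918489, with 6187 bp and a score of 247.72.

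The 10 highest scores of the blocks ran from 119.2 to 205.46. The highest belonged to a peak of 1592 bp starting at 20658344, which ranked 3 on the chromosome and 64 in the list. The next 2 belonged to short peaks far from any other. One from 30546354 to 30546714 (361 bp) scored 170.33, and one from 32576353 to 32576684 (332 bp) scored 163.21. Their nearest neighbours were 477537 and 251452 bp away. Another short and isolated peak, from 23201212 to 23201641 (430 bp), scored 123.3. Peaks under 500 bp were a class looked at after the values were seen. They numbered 9 in the blocks (18%) with a median score of 92.8, and 23 in the rest (24.0%) with a median of 58.3. A score of 100 was exceeded by 3 of the 9 and by 3 of the 23. Over peaks of all lengths the medians also differed, 77.6 against 62.4, and 32% and 13.5% exceeded 100.
The other 6 of the 10 highest-scoring block peaks lay in clusters described next.

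Clusters were defined as at least 3 peaks with gaps of at most 100 kb. The blocks held 6 of them with 28 peaks (56%), and the rest of the chromosome held 8 with 36 peaks (37.5%). The block clusters started near 20.65, 23.32, 28.44, 28.85, 31.02 and 75.61 Mb. A neighbour within 10 kb was present for 20 block peaks (40%) and 35 others (36.5%). Within 1000 bp these numbers were 10 (20%) and 8 (8.33%).

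The cluster at 20.65 Mb held 7 peaks over 51.0 kb, from 20647522 to 20698483, and peaks filled 33.3% of it. In order along the chromosome its lengths were 3783, 1592, 1793, 864, 1624, 1847 and 5469 bp. Its scores, in the same order, were 72.73, 205.46, 73.18, 59.4, 59.48, 138.29 and 138.19. The high scores belonged to the second peak and to the pair at the right end, which were 86 bp apart.

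The cluster at 23.32 Mb held 5 peaks over 40.7 kb, from 23324798 to 23365500, and peaks filled 28.0% of it. Its lengths were 416, 1594, 2377, 1877 and 5148 bp, and its scores 69.78, 79.77, 135.09, 59.85 and 111.75. It too ended on the right in a pair of peaks, here 14 bp apart.

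The cluster at 28.85 Mb held 5 peaks over 50.4 kb, from 28846940 to 28897382, and peaks filled 30.5% of it. Its lengths were 8036, 1467, 1625, 904 and 3363 bp, and its scores 143.47, 53.5, 56.93, 137.46 and 119.2. The very long peak stood at the left end.

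These 3 clusters had a similar layout. Each was laid over each other one, in the same or the reversed order, at the shift that superposed the most peaks and then the most sequence, a search added after the positions were seen. The cluster at 28.85 Mb, reversed, matched the one at 20.65 Mb with all 5 of its peaks and 6 of the other's 7. At this shift, 70.6% of the sequence covered by the peaks of either cluster was shared, with unmatched peaks included in the total. Any overlap counted as a match, and the smallest here was 284 bp. Both peaks of the right-end pair at 20.65 Mb lay on the single peak of 8036 bp. The cluster at 23.32 Mb, in the same order, matched the one at 20.65 Mb with 4 peaks on each side and 57.1% of the sequence. The clusters at 23.32 and 28.85 Mb matched in reversed order, 4 peaks of the former on 3 of the latter, with 55.4%. In this match the peak of 8036 bp shared 1877 and 5148 bp with the right-end pair. The other overlaps were 904 and 1625 bp. Between the clusters at 20.65 and 23.32 Mb the largest overlap was 5106 bp and the others 1569 to 1847 bp. Long peaks thus weighed heavily in these percentages. The right-end pairs of the first 2 spanned 7402 and 7039 bp, and at the corresponding place the cluster at 28.85 Mb had its single peak of 8036 bp.

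**Figure D3:**
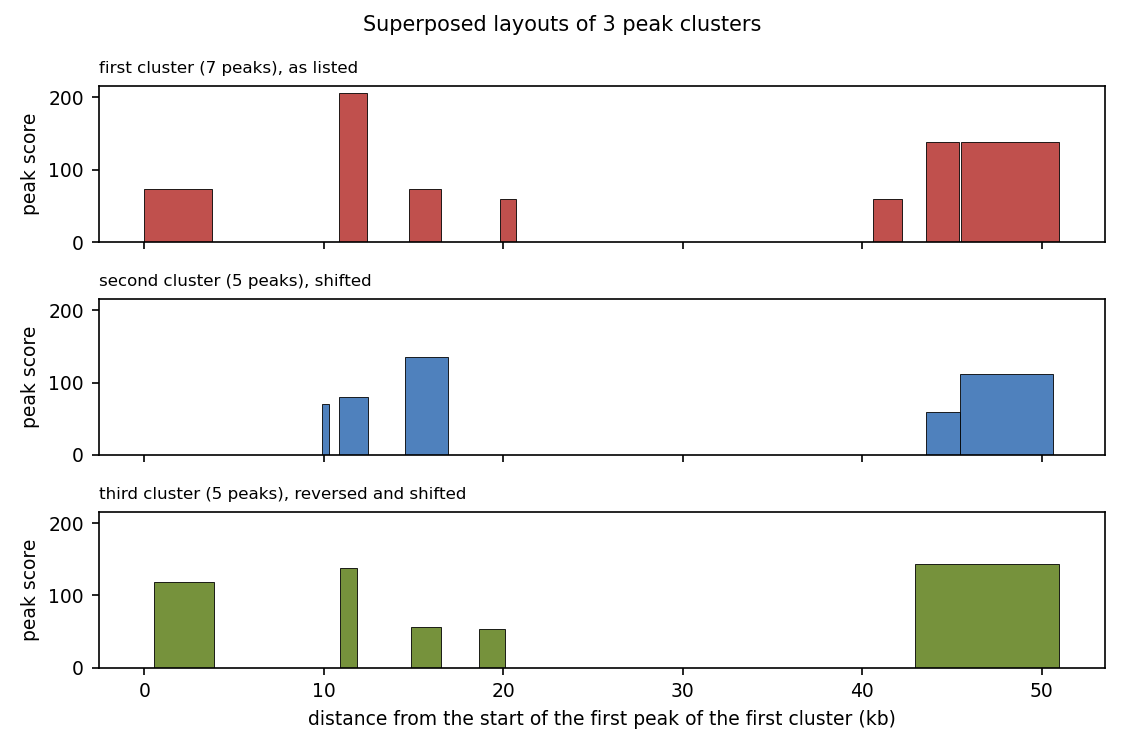
Scores (height) and extents (width, in kb from the first peak of the cluster at 20.65 Mb) of the peaks of that cluster (top), of the cluster at 23.32 Mb after a shift (middle) and of the cluster at 28.85 Mb after reversal and a shift (bottom). Several peaks recur at like distances in all 3 panels, with differing scores.

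Between the clusters at 20.65 and 23.32 Mb, superposed peaks were closer in length than in score. The shift was chosen by peak extents and not by scores, so closer lengths are favoured by construction. The 4 superposed pairs had length ratios of 1.00, 1.33, 1.02 and 0.941. Their score ratios, second cluster over first, were 0.388, 1.85, 0.433 and 0.809. The highest-scoring block peak (205.46, 1592 bp) thus lay over a peak of 1594 bp that scored 79.77. Between the clusters at 20.65 and 28.85 Mb, the peak of 3783 bp (72.73) lay over one of 3363 bp (119.2), and that of 1592 bp (205.46) over one of 904 bp (137.46). That of 1793 bp (73.18) lay over one of 1625 bp (56.93), and that of 864 bp (59.4) over one of 1467 bp (53.5). The right-end pair (138.29 and 138.19) lay over the peak of 8036 bp (143.47), at a score ratio of 1.04 for both. Score ratios of this comparison ran from 0.669 to 1.64 and length ratios from 0.568 to 4.35, so here lengths did not recur more closely. No read counts are at hand, so a counting error of these score ratios could not be given. Some peaks had no partner. The peaks at 20688115 (1624 bp, 59.48) and 23324798 (416 bp, 69.78) overlapped none in either of the other clusters. Those at 20647522, 20667349, 28877791 and 28894020 had none in the cluster at 23.32 Mb.

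The same search over all 91 pairs of the 14 clusters on chromosome 15 gave values to set beside these. Among the 15 pairs of block clusters the median of shared sequence was 17.0% and the highest were the 3 values above. Among the 28 pairs of clusters in the rest, the median was 17.4% and the highest 52.6%, from a pair that superposed 2 peaks. The highest of the 48 mixed pairs (1 cluster in a block, 1 in the rest) lay below both of these maxima. At least 4 superposed peaks were found in 2 of the 15, 1 of the 28 (36.2% shared) and 3 of the 48 pairs (at most 19.3% shared). Each value is the best of many shifts, and each of the 91 pairs shared some sequence at its best shift. The other pairs are no like-for-like scale, because shared sequence depends on how much of a cluster its peaks fill. Peaks filled 28.0% to 33.3% of the 3 clusters, with longest peaks of 5148 to 8036 bp. In clusters of the rest they filled 4.40% to 12.5%, with longest peaks of 960 to 4708 bp.

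**Figure D4:**
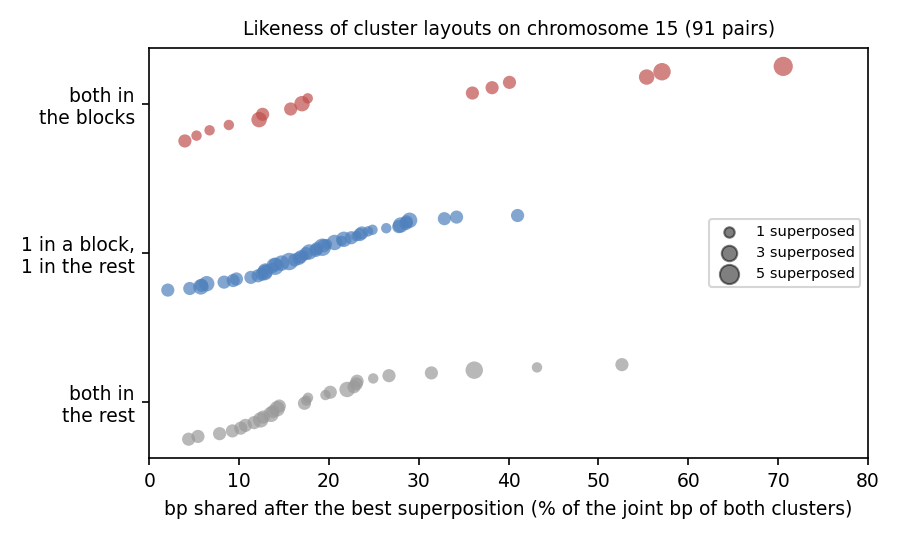
Sequence shared after the best superposition (percent of the joint sequence covered by both clusters) for the 91 pairs of chromosome 15 clusters, by whether the clusters lie in the blocks, with larger points for more superposed peaks. The 3 pairs formed by the clusters at 20.65, 23.32 and 28.85 Mb lie at 55.4%, 57.1% and 70.6%, above the other 88 pairs. Peaks fill more of each of these 3 clusters than of any cluster in the rest.

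Each block cluster was also laid over the 157 other clusters of the whole list, and partners were ranked by shared sequence alone. For the cluster at 20.65 Mb the one at 28.85 Mb came first, followed by that at 23.32 Mb. For the cluster at 28.85 Mb the one at 20.65 Mb came first, followed by that at 23.32 Mb. For the cluster at 23.32 Mb the one at 20.65 Mb came first. A cluster of 4 peaks on chromosome 1 from 214786721 to 214830985 came second with 55.9% and 3 superposed peaks, just ahead of the one at 28.85 Mb. By number of superposed peaks, clusters of other chromosomes did as well. A cluster of 12 peaks on chromosome 16, from 30242544, also superposed 5 peaks with the one at 20.65 Mb, at 37.4%. A cluster of 4 peaks on chromosome 9, from 66820569, superposed 4 with the one at 23.32 Mb, at 45.8%.

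The 3 clusters held 17 peaks (34% of those in the blocks) and 43.8 kb (44.4% of the block sequence in peaks). They included 6 of the 13 peaks of 2000 bp or more and 8 of the 16 peaks scoring above 100. Without them the blocks had 33 peaks, or 1.64 per Mb, which was 1.07 times the density of the rest. The median length of these 33 peaks was 844 bp, close to the 846.5 bp of the rest, while their median score stayed at 77.3. A length of 2000 bp or more was then reached by 21.2% and a score above 100 by 24.2%. Leaving out clusters lowers a density by construction, and the rest kept its own 8 clusters in this comparison.

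The cluster at 28.44 Mb was far sparser. It held 5 peaks over 120 kb, from 28441139 to 28561463, and peaks filled only 4.34% of it. Its lengths were 659, 1384, 373, 2158 and 644 bp, and its scores 58.41, 104.32, 98.17, 50.11 and 103.51. It superposed 3 peaks with each of the clusters at 20.65 and 23.32 Mb in the same order, but shared only 12.2% and 17.0% of the sequence with them.

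The cluster at 31.02 Mb held 3 peaks over 116 kb, from 31024252 to 31139884. They were the longest peak of the list (12489 bp), one of 4455 bp scoring 71.17 and one of 2998 bp scoring 50.46. Because of that long peak, superposition with it says little: its best partner among the block clusters shared 40.1% with 2 superposed peaks.

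The remaining 16 peaks of the proximal block lay in no cluster. They included the peaks at 34709129 (3552 bp, 62.28) and 34817263 (5596 bp, 116.94), the last 2 of the block, and one at 30022443 (3098 bp, 116.95). The 3 peaks of the middle block formed the cluster at 75.61 Mb, with 1100, 458 and 562 bp and scores of 77.3, 92.79 and 52.51. The 6 peaks of the distal block measured 388 to 1314 bp and scored 58.72 to 87.03. None of these 9 reached a score of 100.

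Peaks alike in both length and score were not more frequent in the blocks. A like partner is easier to find where values lie close together. Lengths and scores of the rest did so, by their quartiles, so the shares below cannot tell whether peaks recur as copies. A peak with both values within 2% of its own was found on chromosome 15 for 3 block peaks (6%) and for 13 others (13.5%), and in 0 cases were both peaks of such a pair in the blocks. The 3 started at 28441139 (659 bp, 58.41), 29525977 (1243 bp, 78.49) and 82706798 (450 bp, 73.97). At 5% there were 2 such pairs. Successive spacings that recurred in pairs within 1% numbered 0 among the 16 pairs of spacings in the blocks and 0 among the 20 in the rest.

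At the edges of the blocks, the last peak inside the proximal block (5596 bp, 116.94) lay 179.9 kb from the limit, and the first one outside it (401 bp, 59.66) lay 178.7 kb beyond. The first peak of the proximal block was also the first of the chromosome, 649.4 kb past the limit. Around the middle and distal blocks the nearest outside peaks were 1106.3 kb or more away, and their scores ran from 51.71 to 120.6.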

How the data were processed

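Crosslinked RNA of 1 HA immunoprecipitate was analysed as a peak list, with samples grouped by title. The authors deposited chromosome, start, end, name and score per peak, with no strand or read count. The score is the authors' value and was used only within the list. The submitters' processing notes name bedtools, SAMtools, Bowtie2, cutadapt and UMI-tools 1.0.0, and the build hg19, with no roles. Peak names begin with MACS, a peak caller. Not given in the sources used here are its settings, its control and the placement of reads with several matches, which decide how duplicated sequence appears.

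Blocks, clusters and gene names were chosen with earlier results of these data known. Peaks named were block peaks of 4000 bp or more, the 10 highest scores, cluster members, peaks with a like partner and the longest and highest-scoring peak outside; the short, isolated peaks and those at 30022443 and 34709129 were picked after their values were seen. With 1 library no test was made. Intervals of density are exact Poisson, those of medians binomial. Cluster layouts were compared by shift or reflection, which was checked on made-up exact copies. That check covers the finding of copies and not how often unlike clusters match. RefSeq sequences (GRCh38.p14) were aligned globally. Protein comparison and gene assignment were not run, for want of a protein table and an hg19 annotation. Alternatives were a score limit, overlap membership, merging, other distances and omission of each block. Tools were biopython 1.88, matplotlib 3.10.9, scipy 1.17.1, pandas 2.3.3 and numpy 2.4.6 under Python 3.11.15.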

Additional observations from a re-analysis of the deposited data

How the results depend on the processing

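Of 36 values recomputed under alternatives, 24 stayed within their interval or within 1.5 times the count. That count includes values that could not move. No peak crossed a block limit, so overlap membership gave the same peaks and values. The density of the rest was left unchanged when the blocks were measured from first to last peak. With the peaks scoring above the list's median, the blocks held 32 peaks at 1.59 per Mb with a median score of 101, against 0.704 per Mb in the rest. Measured from the first to the last peak of each block, the density was 3.36 per Mb. It fell to 1.76 without the proximal block. The share of peaks with a neighbour was 20% within 1000 bp and 76% within 100 kb. Without the 3 clusters of like layout, an alternative chosen after seeing the data, 33 peaks at 1.64 per Mb and 3 clusters remained, and 12.1% had a neighbour within 10 kb. The blocks had a higher density than the rest in every setting that gave both, from 1.07-fold without those clusters to 2.26-fold with the higher scores. However, the densities of 1.64 and 1.76 per Mb lay within the Poisson interval of the rest, 1.25 to 1.88. No paired analysis was possible because only 1 immunoprecipitate was analysed. Unknown depth and the lack of replicates limit every value.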
